A study of Mus musculus with 4 samples.

Results

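C1q+ Arg1- cells are myeloid cells of glioma-bearing and healthy mouse brain with complement C1q transcripts and no Arg1 transcript read. A limit on microglial genes set apart microglia, which carried more C1q. The C1q+ Arg1- cells were chosen by their own unique molecular identifiers (UMIs, each standing for 1 captured RNA molecule). A cell had to carry at least 1 Csf1r UMI, at least 3 UMIs of Ms4a7, Ms4a6c and Tgfbi together, and at most 1 of the microglial genes Tmem119, P2ry12, Gpr34, Sparc and Sall1. It also had to carry no Cd3d, Cd3e or Cd3g UMI, at least 2 UMIs of C1qa, C1qb and C1qc together, and no Arg1 UMI. Barcodes with under 200 genes or over 10% mitochondrial UMIs were set aside first, and of the 8572 kept, 275 met the rule. The tumor library given anti-CTLA-4 plus anti-CD4, called the depletion library below, held 150 of its 3875 kept barcodes (3.87%, 95% CI 3.29 to 4.53%). The anti-CTLA-4 library held 58 of 1853 (3.13%, 2.39 to 4.03%), the IgG library 55 of 1444 (3.81%, 2.88 to 4.93%) and the healthy brain library 12 of 1400 (0.857%, 0.444 to 1.49%).

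The mice were C57BL/6 animals, aged 8 to 12 weeks when glioma-005 cells, a mouse glioblastoma line, were put into the hippocampus; no age was given for the healthy mice. Antibodies went into the peritoneum from day 7 and tumors were taken at day 35, with 3 tumors pooled in each tumor library. The depletion mice received anti-CTLA-4 (clone 9H10), which blocks an inhibitory receptor of T cells, together with anti-CD4 (clone GK1.5), which removes CD4-bearing cells. The anti-CTLA-4 mice received the first antibody, the IgG mice a rat isotype antibody, and healthy brains carried no tumor. CX3CR1+ microglia of intermediate CD45 and the CD11b+, CD3+ and remaining fractions of high CD45 were sorted and mixed at equal ratios, so the shares above follow the mixing as well as the tissue.

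C1q starts the classical complement cascade and also coats dying cells and synapses for uptake, and macrophages and microglia are its main source in the brain. Monocytes that enter a tumor switch on C1q, Apoe and MHC class II genes as they turn into macrophages. Arginase 1, the enzyme whose transcript these cells lack, breaks down arginine and marks one suppressive state of tumor macrophages. Interferon-gamma from T cells and NK cells makes macrophages express chemokines that draw T cells, GTPases that act against pathogens inside the cell, and antigen presentation genes.

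Each group was 1 library, so no difference below could be set against the spread between animals and none carries a p-value. Intervals are 95% and cover counting error only; UMIs of a gene cluster by cell, so the true error is wider. The libraries held 21471565, 13428840, 9952379 and 7950206 UMIs with depletion, anti-CTLA-4, IgG and in healthy brain, and the C1q+ Arg1- cells 1330248, 578966, 511631 and 157117 of these. Their median depth was 8343, 9869.5, 9384 and 12793.5 UMIs per cell in that order of libraries. In T cells Cd4 stood at 5.76 CPM (counts per 1000000 UMIs of the cells summed) with depletion, 105.4 with anti-CTLA-4, 128 with IgG and 67.3 in healthy brain. Xist, expressed in females, stood at 716, 887, 964 and 2.14 CPM over those libraries, so tumor and healthy brain differ in sex as well as in tumor. Over all pairs of libraries 9 barcodes were shared, none of them by C1q+ Arg1- cells.

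The macrophage markers that go with the name were read in a minority of the cells. Ms4a7, which marks brain macrophages other than microglia, had a UMI in 23.3% of the depletion cells, 25.9% of the anti-CTLA-4 cells, 23.6% of the IgG cells and 8.33% of the healthy brain cells. Mrc1, the mannose receptor, had one in 9.33%, 13.8%, 12.7% and 8.33%. Among T cells, which should lack both, the shares in the 3 tumor libraries in the same order were 0.88%, 1.80% and 1.82% for Ms4a7 and 0%, 0.817% and 1.14% for Mrc1. Monocyte genes were read in more of the cells. Ccr2, the receptor that brings monocytes out of the marrow, had a UMI in 82.7%, 75.9%, 90.9% and 75% of cells, Plac8 in 84.0%, 86.2%, 89.1% and 83.3%, and Ly6c2 in 58.0%, 75.9%, 72.7% and 66.7%, in the order depletion, anti-CTLA-4, IgG and healthy brain. T cells, which were shallower (medians of 4176 to 6184 UMIs per cell) and can express these genes themselves, had a Ccr2 UMI in 29.5%, 28.3%, 24.8% and 5.88%, a Plac8 UMI in 30.1%, 44.6%, 39.3% and 24.8%, and a Ly6c2 UMI in 28.4%, 29.4%, 28.0% and 35.3%. The label macrophage therefore rests on the rule, and the cells are called by the rule here.

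**Figure D1:**
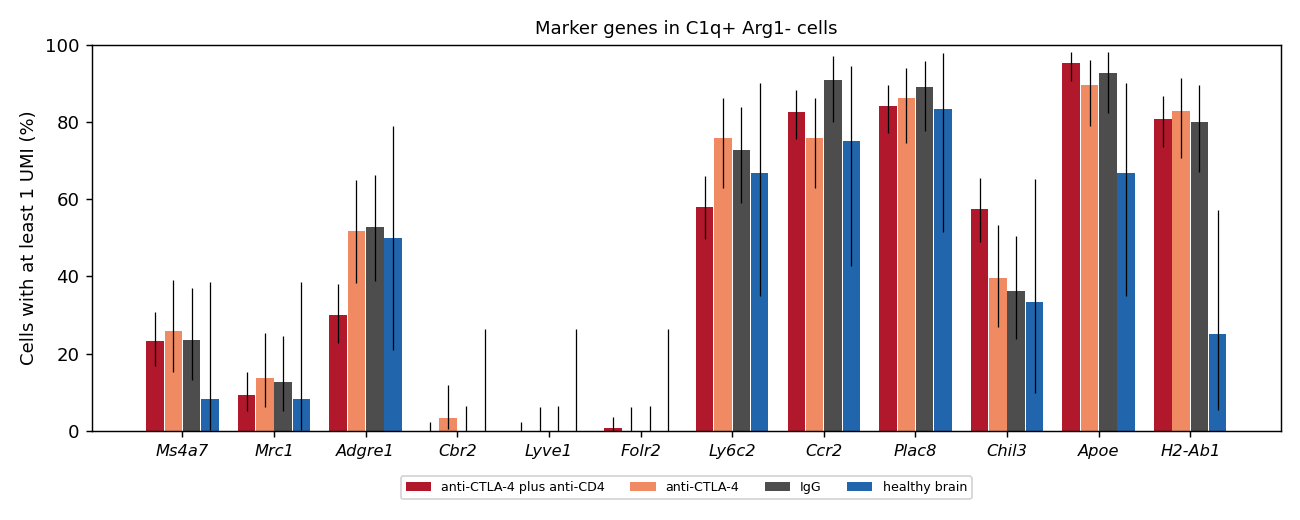
Share of C1q+ Arg1- cells with at least 1 UMI (vertical axis, %) of 12 genes in the 4 libraries (bars), with exact 95% binomial intervals (lines). The bars for Ccr2 and Plac8 stand at 75% or more in each library, while those for Mrc1 stay at 13.8% or less and those for Cbr2, Lyve1 and Folr2 are at or near 0.

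Defining genes of border-associated macrophages, which live in the meninges and around vessels, were read in few of the cells. None of the 275 cells carried UMIs of at least 2 of Cbr2, Lyve1 and Folr2, which allows a share of up to 1.09% of cells with such UMIs (exact upper bound 1.33%). That is no limit on border cells, whose low transcripts can go unread. A UMI of any of the 3 genes was read in 3 cells, a share of 1.09% (0.226 to 3.15%): Folr2 in 1 depletion cell and Cbr2 in 2 anti-CTLA-4 cells. In all kept barcodes of the series, only 2 carried at least 2 of these genes, 1 with depletion and 1 in healthy brain. The summed level of 12 border markers was 194 CPM with depletion, 280 with anti-CTLA-4, 375 with IgG and 738 in healthy brain, against 7720, 10629, 9018 and 7345 CPM for 9 monocyte markers. Microglial markers, 10 genes of which the rule used 5, summed to 68.4, 69.1, 88.0 and 31.8 CPM in C1q+ Arg1- cells.

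Markers of other blood cells differed between libraries. Neutrophil markers summed to 4793 CPM with depletion, 915 with anti-CTLA-4, 332 with IgG and 2094 in healthy brain, and at least 5 UMIs of them were read in 44 (29.3%), 7 (12.1%), 6 (10.9%) and 9 (75%) cells. All 7 neutrophil markers were above 0 with depletion, while Retnlg and Ly6g were at 0 with anti-CTLA-4 and Ly6g was at 0 with IgG and in healthy brain. Among all kept barcodes, those with at least 20 neutrophil-marker UMIs and no Csf1r UMI numbered 395 (10.2%) with depletion, 36 (1.94%) with anti-CTLA-4, 35 (2.42%) with IgG and 150 (10.7%) in healthy brain. NK cell markers summed to 7.52, 238, 7.82 and 0 CPM, and B cell markers to 23.3, 12.1, 5.86 and 535 CPM, in the order depletion, anti-CTLA-4, IgG and healthy brain. A doublet caller marked 11, 3, 1 and 0 of the cells, and these were kept. These counts cannot be compared between libraries, since the cut differed. With depletion and anti-CTLA-4 the caller marked only 2 and 8 barcodes, so a cut at the top 5% of scores was used (169 and 90 barcodes). The IgG and healthy brain libraries kept the caller's own cut (10 and 12 barcodes). What free RNA or doublets add to the levels below was not tested beyond the counts without such cells given beside them.

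C1q itself varied widely from cell to cell; the rule used it, so its values are a description. The depletion cells held a median of 22.5 C1q UMIs (range 2 to 275), the anti-CTLA-4 cells 6.5 (2 to 372), the IgG cells 6 (2 to 307) and the healthy brain cells 2 (2 to 48). At least 10 UMIs were read in 98 (65.3%), 23 (39.7%), 24 (43.6%) and 1 (8.33%) of them, called C1q-rich below, and those with 2 to 9 C1q-poor. T cells reached 2 or more C1q UMIs in 13.6%, 17.8%, 19.5% and 9.15% of cells, and 10 or more in 4.18%, 6.54%, 4.32% and 2.61%, at medians of 4176, 5619.5, 5525 and 6184 UMIs per cell. Counts of 2 to 4 were found in 28.0%, 43.1%, 45.5% and 91.7% of C1q+ Arg1- cells, and in 6.75%, 7.68%, 12.0% and 5.88% of T cells. The T cells were chosen by Cd3 UMIs alone, without removal of doublets, and reached up to 403 C1q UMIs. Their shares are thus no clean measure of background. Summed C1q stood at 4244, 2876, 4128 and 471 CPM, far under the 32174, 31885, 30795 and 25120 CPM of microglia. In T cells it stood at 694, 620, 373 and 432 CPM. The healthy brain cells thus lay near the T cells of their library, and 1 of them held 48 C1q UMIs. Just inside the C1q threshold lay 61 cells with 2 UMIs and just outside it 210 with 1, and 35 further cells missed the rule for a single Arg1 UMI.

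**Figure D2:**
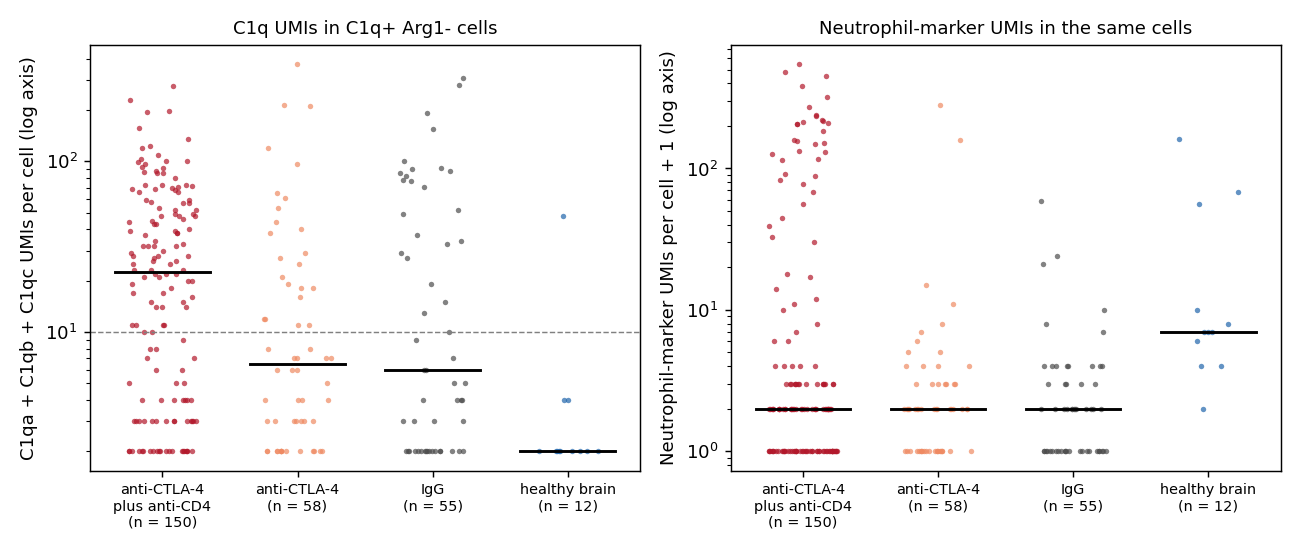
C1q UMIs (left) and neutrophil-marker UMIs plus 1 (right) of each C1q+ Arg1- cell on log axes, by library; points are cells, black bars medians and the dashed line 10 C1q UMIs. The depletion cells have the highest median C1q count (22.5), and a group of them reaches over 100 neutrophil-marker UMIs.

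Apoe, Trem2 and Ms4a7 stood higher in cells with at least 10 C1q UMIs than in those with 2 to 9. Apoe, which carries lipids out of phagocytes, stood at 13531 CPM in the richer and 4143 in the poorer cells with depletion, 12748 and 2204 with anti-CTLA-4, and 14434 and 3536 with IgG. Trem2, a receptor for lipids and dying cells, stood at 394 against 101 CPM, 267 against 57.3 and 355 against 94.6 in the same libraries. Ms4a7 was also higher in the richer cells, at 79.4 against 16.9 CPM with depletion, 139 against 20.8 with anti-CTLA-4 and 182 against 21.8 with IgG. Cd209a, a lectin of monocyte-derived dendritic cells, ran the other way, with 2.33 against 57.0 CPM, 0 against 167 and 161 against 338. Cxcl9, a chemokine induced by interferon-gamma, showed no such order, with 226 against 273 CPM with depletion, 1130 against 2280 with anti-CTLA-4 and 1614 against 1593 with IgG.

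With CD4 cells depleted, C1q+ Arg1- cells carried far fewer interferon-induced transcripts than with anti-CTLA-4 alone, the comparison that shows these cells under CTLA-4 blockade with and without CD4 cells. Cxcl9 and Cxcl10, the chemokines that draw CXCR3-bearing T cells, were lower by over 7-fold, or by log2 ratios of -2.39 and -2.40 without cells carrying markers of other blood cells. All measured genes of the interferon-gamma and type I interferon lists were lower by at least 1.5-fold. Transcripts of neutrophils and of the secreted phosphoprotein Spp1 were higher with depletion, as were those of the lysosomal proteases Ctsl and Lgmn. To be counted, a gene needed 50 or more UMIs over the pair of libraries, detection in 10% or more of cells on its higher side, and a CPM ratio of 2 or more. Of 4192 genes tested, 190 were higher (4.53%) and 376 lower (8.97%) with depletion. When CPM excluded ribosomal and mitochondrial UMIs the split was 262 higher and 297 lower, and with median-of-ratios factors, which moved all genes by 0.06 on the log2 scale, it was 222 and 331.

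Cxcl9 (ENSMUSG00000029417, mm10 chromosome 5, 92321347 to 92328079) stood at 243 CPM with depletion, 1893 with anti-CTLA-4, 1603 with IgG and 0 in healthy brain, and was 7.80-fold lower with depletion than with anti-CTLA-4 (6.88 to 8.85). Its neighbor Cxcl10 (ENSMUSG00000034855, chromosome 5, 92346638 to 92348889) stood at 304, 2287, 917 and 0 CPM, 7.51-fold lower (6.72 to 8.42). Among C1q-rich cells, Cxcl9 stood at 226 CPM with depletion against 1130 with anti-CTLA-4 and Cxcl10 at 328 against 1541. In the C1q-rich cells of the IgG library Cxcl9 stood at 1614 CPM, above anti-CTLA-4, and Cxcl10 at 465. Over all C1q+ Arg1- cells the depletion library was the lowest of the tumor libraries for both, and anti-CTLA-4 the highest. Socs1 (chromosome 16, 10782240 to 10785536), which shuts off interferon receptor signaling, stood at 98.5, 518, 244 and 0 CPM, 5.26-fold lower. Among the GTPases, Iigp1 stood at 37.6, 261, 209 and 0 CPM, 6.94-fold lower. Igtp (chromosome 11, 58199556 to 58207591), another such GTPase, stood at 53.4, 254, 143 and 19.1 CPM. Batf2, a transcription factor of activated macrophages, stood at 9.77, 104, 45.0 and 0 CPM, 10.6-fold lower. Over all C1q+ Arg1- cells the order depletion, IgG, anti-CTLA-4 from low to high held for each gene of this paragraph.

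Of 21 genes on the interferon-gamma list, 17 had at least 20 UMIs, and 17 of 17 were at least 1.5-fold lower with depletion, with a median log2 ratio of -2.21. Over 6706 genes measured in the same way, 21.1% were lower by that much, 17.6% higher, and the median was -0.03. The type I interferon list was lower in 16 of 16 genes, median -1.53. Ifit2, which binds viral RNA, stood at 68.4 CPM with depletion, 352 with anti-CTLA-4, 248 with IgG and 0 in healthy brain, and was 5.15-fold lower. Among the 3 tumor libraries depletion was lowest in 17 of 18 interferon-gamma genes and 16 of 16 type I genes, where it was lowest in 38.0% of all genes. Anti-CTLA-4 was highest in 18 of 18 and 16 of 16, against 34.7% of all genes. The lists, like the cells, were chosen with earlier results of these data known, so their counts describe and do not test.

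**Figure D3:**
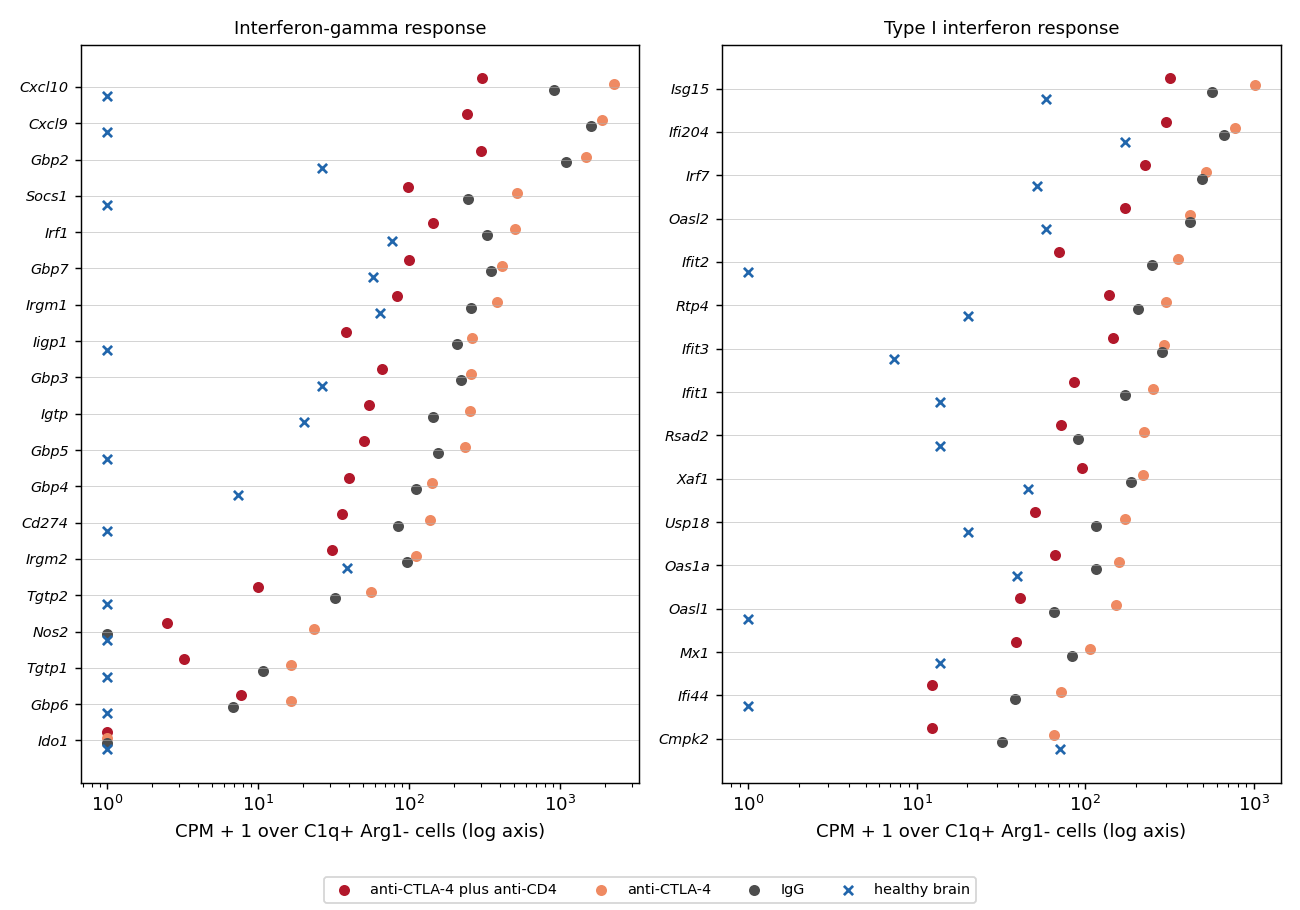
CPM plus 1 (horizontal log axis) over C1q+ Arg1- cells for genes of the interferon-gamma list (left) and the type I interferon list (right); 1 mark per library, so no error is drawn. The depletion marks lie left of the anti-CTLA-4 marks for each gene drawn that has a UMI, for example 243 against 1893 CPM for Cxcl9.

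The difference was spread over the cells. UMIs of the interferon-gamma list per 10000 UMIs of a cell had a median of 7.99 in depletion cells (quartiles 2.23 and 28.9, highest 400), 71.7 in anti-CTLA-4 cells (38.5 and 117, highest 306), 45.5 in IgG cells (20.7 and 95.1, highest 286) and 5.67 in healthy brain cells (3.02 and 8.00, highest 15.9). The upper quartile with depletion thus lay under the lower quartile with anti-CTLA-4. No UMI of the list was read in 15 depletion cells (10.0%), in no anti-CTLA-4 or IgG cell, and in 1 healthy brain cell. The groups overlapped, since the single highest cell was in the depletion library.

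The DNA just before 4 of these genes shows how the response element of interferon-induced genes is spread among genes that were lower together. Given are the 250 bases before the RefSeq start (GRCm38.p6, gene strand, 5′ to 3′), with capitals for GAAANNGAAA, the core of an interferon-stimulated response element (searched with its reverse TTTCNNTTTC).
Cxcl9, chr5:92328080-92328329, minus strand: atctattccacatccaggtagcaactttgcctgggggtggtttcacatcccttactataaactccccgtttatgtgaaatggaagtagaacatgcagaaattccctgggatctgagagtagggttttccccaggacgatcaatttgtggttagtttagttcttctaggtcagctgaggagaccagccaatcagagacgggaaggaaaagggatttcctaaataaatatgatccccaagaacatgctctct
Cxcl10, chr5:92348890-92349139, minus strand: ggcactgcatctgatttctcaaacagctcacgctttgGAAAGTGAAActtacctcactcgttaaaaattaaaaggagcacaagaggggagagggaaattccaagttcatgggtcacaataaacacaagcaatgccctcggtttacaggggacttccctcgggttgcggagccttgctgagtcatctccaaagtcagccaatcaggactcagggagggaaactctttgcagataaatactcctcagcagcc
Socs1, chr16:10785537-10785786, minus strand: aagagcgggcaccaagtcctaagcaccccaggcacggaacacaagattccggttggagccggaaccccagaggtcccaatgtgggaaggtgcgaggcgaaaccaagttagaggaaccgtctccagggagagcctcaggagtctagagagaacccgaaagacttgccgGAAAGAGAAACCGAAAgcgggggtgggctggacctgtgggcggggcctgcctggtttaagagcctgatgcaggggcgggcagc
Igtp, chr11:58199306-58199555, plus strand: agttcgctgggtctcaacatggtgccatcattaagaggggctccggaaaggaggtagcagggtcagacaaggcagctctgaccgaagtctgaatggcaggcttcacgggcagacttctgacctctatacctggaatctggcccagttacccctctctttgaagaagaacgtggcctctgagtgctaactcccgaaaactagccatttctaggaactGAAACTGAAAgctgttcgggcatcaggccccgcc
Cxcl10 had 1 response element core, beginning 213 bases before the start, Socs1 had 2 that overlap, at 83 and 77 bases, and Igtp had 1 at 34 bases. These letters are not in the Cxcl9 window. The response element core was found in 11 of 17 windows of the interferon-gamma list (64.7%, 15 genes matched) and 5 of 13 of the type I list (38.5%). It was in 2 of 14 windows of the MHC class I list (14.3%), 1 of 10 of the class II list (10.0%) and 978 of 32851 of all windows (2.98%). A match of letters is not a measured binding site.

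Of 14 MHC class I genes 13 were at least 1.5-fold lower with depletion, median log2 ratio -0.89. Over all genes measured 21.1% were lower and 17.6% higher by that much. Tap1, which pumps peptides toward class I molecules, stood at 135 CPM with depletion, 380 with anti-CTLA-4, 364 with IgG and 57.3 in healthy brain, 2.81-fold lower (2.30 to 3.44). The immunoproteasome subunit Psmb9 was 2.36-fold lower (2.02 to 2.76), at 241 CPM with depletion against 568 with anti-CTLA-4. Of 11 MHC class II genes 2 were lower, with a median of -0.07, and none was higher. The median was -0.82 in C1q-rich cells (9 of 11 lower) and 0.32 in C1q-poor cells (0 of 9 lower, 2 higher), and C1q-rich cells were 65.3% of the depletion and 39.7% of the anti-CTLA-4 cells. H2-Aa, a chain of the class II molecule, stood at 4434 CPM with depletion against 7114 with anti-CTLA-4 in C1q-rich cells and at 3602 against 2087 in C1q-poor cells. The summed level of the class II genes was 25829 CPM with depletion, 26544 with anti-CTLA-4, 38786 with IgG and 10254 in healthy brain. IgG held the highest value among the tumor libraries for 9 of 12 class II genes, where it did so for 30.5% of all genes.

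Among regulators of T cells, of 6 costimulatory genes 3 were lower with depletion and 1 higher, median -0.74. Over all genes measured 21.1% were lower and 17.6% higher by 1.5-fold, so the counts of higher genes in this paragraph lie near or under the background. Cd40, the receptor through which CD4 cells license macrophages, stood at 36.1 CPM with depletion against 133 with anti-CTLA-4, 3.69-fold lower (2.54 to 5.40). Icam1, an adhesion molecule, was 3.61-fold lower and Cd86, a ligand of CD28 and CTLA-4, 2.27-fold lower. On the immunosuppression list 6 of 11 genes were lower and 1 higher, median -0.61. They included Cd274, which encodes PD-L1, with 35.3 CPM with depletion against 138 with anti-CTLA-4 (3.91-fold, 2.69 to 5.73), and Il1rn, the interleukin-1 receptor antagonist, with 86.5 against 356 CPM (4.12-fold, 3.26 to 5.22). Of 9 complement genes other than C1q 5 were lower and 1 higher, median -0.69. C3, the central complement protein, stood at 106 CPM with depletion, 399 with anti-CTLA-4, 373 with IgG and 395 in healthy brain, 3.76-fold lower (3.04 to 4.67). Of 11 inflammatory genes 5 were lower and 2 higher, median -0.13.

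Genes higher with depletion included neutrophil genes. S100a8 (chromosome 3, 90668978 to 90670035), a subunit of calprotectin in neutrophils and monocytes, stood at 2706 CPM with depletion, 442 with anti-CTLA-4, 84.0 with IgG and 1146 in healthy brain, and was 6.12-fold higher (5.39 to 6.97). S100a8 was read in only 5 anti-CTLA-4 cells, with 51.2% of its UMIs there in 1 cell. S100a9 stood at 1753, 304, 78.2 and 395 CPM, 5.77-fold higher (4.95 to 6.76), but 81.3% of its anti-CTLA-4 UMIs came from 1 cell. Retnlg, a neutrophil resistin-like gene, stood at 138, 0, 35.2 and 185 CPM, at least 26.5-fold higher against a floor of 3 counts in the library. Lcn2, a neutrophil granule protein, stood at 162, 1.73, 0 and 50.9 CPM, a ratio of 93.6 (16.6 to 3713) that rests on 1 anti-CTLA-4 UMI. Cxcl2, a chemokine for neutrophils, stood at 174, 5.18, 0 and 0 CPM. It was read in 16 depletion cells, with 32.0% of its UMIs in 1 of them, and in 1 anti-CTLA-4 cell. Neutrophil markers moved with the library, and when cells with at least 5 neutrophil, 2 NK or 2 B cell marker UMIs were left out (46, 10, 8 and 10 cells), 108 genes were higher, 80 of them among the 190, and 305 lower, 248 of them among the 376. Neutrophil markers cannot be judged in what remains, since the cells were left out for such UMIs. Lcn2 and Cxcl2 were not among those markers, and their high values with depletion were largely lost. Lcn2 gave a log2 ratio of 1.24 and Cxcl2 one of 0, the value set where counts are too few for a ratio. The interferon-gamma list kept a median of -2.00 and the type I list one of -1.48.

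Phagocyte genes were also among those higher. Spp1 (chromosome 5, 104435118 to 104441050), which encodes osteopontin, stood at 199.96 CPM with depletion, 10.4 with anti-CTLA-4, 7.82 with IgG and 6.37 in healthy brain, and was 19.3-fold higher (8.75 to 53.1). Its log2 ratio was 3.76 without the cells of other markers. Il1r2, the decoy receptor for interleukin 1, stood at 256, 24.2, 29.3 and 12.7 CPM, 10.6-fold higher (6.21 to 19.5), and at a log2 ratio of 3.05 without those cells. Ctsl, a lysosomal protease, stood at 330.0, 74.3, 119 and 63.7 CPM, 4.44-fold higher (3.24 to 6.23). Lgmn, another, was 2.44-fold higher (2.03 to 2.95), at 582 CPM with depletion against 238 with anti-CTLA-4. Mertk, a receptor for dying cells, stood at 36.8, 6.91, 7.82 and 0 CPM, 5.33-fold higher (1.95 to 20.3). Trem2 was 2.27-fold higher (1.77 to 2.95), at 290 against 128 CPM. Genes of neither kind were higher too: Rgs1, a brake on G-protein signaling, stood at 125.5 CPM with depletion against 10.4 with anti-CTLA-4 (12.1-fold), Cirbp, an RNA-binding protein, at 195 against 29.4 (6.63-fold) and Fkbp5, a chaperone partner induced by glucocorticoids, at 59.4 against 6.91 (8.60-fold, 4 anti-CTLA-4 UMIs).

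C1q-rich cells made up 65.3% of the depletion cells and 39.7% of the anti-CTLA-4 cells. Spp1, Ctsl, Lgmn, Mertk and Trem2 stood higher in C1q-rich than in C1q-poor cells of each tumor library. For Mertk this rests on 3 against 1 UMIs with anti-CTLA-4 and 4 against 0 with IgG. For Spp1 it rests on 6 against 0 and 3 against 1. What the share of C1q-rich cells adds to the values was not tested. Within the C1q-rich cells Trem2 stood at 394 CPM with depletion against 267 with anti-CTLA-4, Lgmn at 670 against 421, Ctsl at 413 against 139, Mertk at 51.3 against 15.4 and Spp1 at 263 against 30.8. In the C1q-poor cells Trem2 stood at 101 against 57.3 CPM, Lgmn at 423 against 146, Ctsl at 180 against 41.6 and Spp1 at 86.6 against 0. Mertk had 5 and 1 UMIs in those cells. Depletion was thus the higher of the pair on both sides of the split for these genes, but the gap in Trem2 was under 2-fold on both sides and that in Lgmn under 2-fold in C1q-rich cells. The lysosomal list had a median of -0.40 in C1q-rich and 0.16 in C1q-poor cells, and the list for uptake of dying cells -0.22 and 0.56.

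The lists around these genes differed little as a whole. Over all genes measured 17.6% were higher and 21.1% lower by 1.5-fold, and several of the counts below lie near these shares. Of 13 lysosomal genes 3 were higher and 0 lower, median 0.04. Of 9 genes for uptake of dying cells 3 were higher and 2 lower, median 0.34, and of 16 disease-associated microglia genes 6 were higher and 1 lower, median 0.09. Monocyte genes were mixed: of 9, 3 were higher and 4 lower, median -0.05, with Ly6c2 at 748 CPM with depletion against 1655 with anti-CTLA-4 (2.21-fold lower) and Fn1 at 906 against 461. Of 15 hypoxia and glycolysis genes 5 were lower and 1 higher, median -0.30. Medians of the macrophage identity, lipid, iron and Fc receptor lists were -0.31, -0.29, 0.15 and -0.10, that of the homeostatic microglia list -0.12 and that of the border list -0.72 over 5 genes. Of 11 genes of the response to tissue dissociation 5 were lower and 1 higher, median -0.47, and only 2 proliferation genes were measured.

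The largest difference in the other direction was not of macrophage type. Gzma, a granzyme of NK and T cells, stood at 5.26 CPM with depletion, 162 with anti-CTLA-4 and 5.86 with IgG, 30.9-fold lower (14.4 to 78.8). Its anti-CTLA-4 UMIs lay in 10 cells, 50% of them in 1 cell, and NK cell markers, of which Gzma is 1, summed to 238 CPM in the same library. Without cells of other markers the log2 ratio was -1.98, but Gzma cannot be judged there, since cells were left out for its UMIs among others. With the rule applied to cells thinned to 2000 UMIs the direction turned, to a log2 ratio of 1.08. Cnn3, an actin-binding protein, stood at 6.77 against 107 CPM (15.8-fold lower), and Ear2, a ribonuclease, was 7.26-fold lower. Cells with at least 10 C1q UMIs (98 and 23 in the comparison) gave 190 genes lower, where all C1q+ Arg1- cells gave 376. In fewer cells fewer genes reach 50 UMIs, so these counts do not compare the size of the difference. Of those 190, 116 were among the 376. The same cells gave 175 genes higher, 77 of them among the genes higher in all C1q+ Arg1- cells.

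The same contrast in neighboring populations was read beside the C1q+ Arg1- cells, with no test of the difference. The interferon-gamma median with depletion over anti-CTLA-4 was -2.13 in cells with at least 10 C1q UMIs, -2.24 in those with 2 to 9, -1.97 in Arg1-positive cells of the same gate, -1.78 in cells of the gate with under 2 C1q UMIs (C1q-low cells, also without an Arg1 UMI) and -1.44 in microglia. The type I median was -1.53 in C1q+ Arg1- cells as a whole, -0.74 in Arg1-positive cells, -0.72 in C1q-low cells and -0.07 in microglia. The MHC class II median was -0.87 in Arg1-positive cells, -0.07 in C1q-low cells and -2.19 in microglia, beside the -0.82 of C1q-rich and 0.32 of C1q-poor cells.

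**Figure D4:**
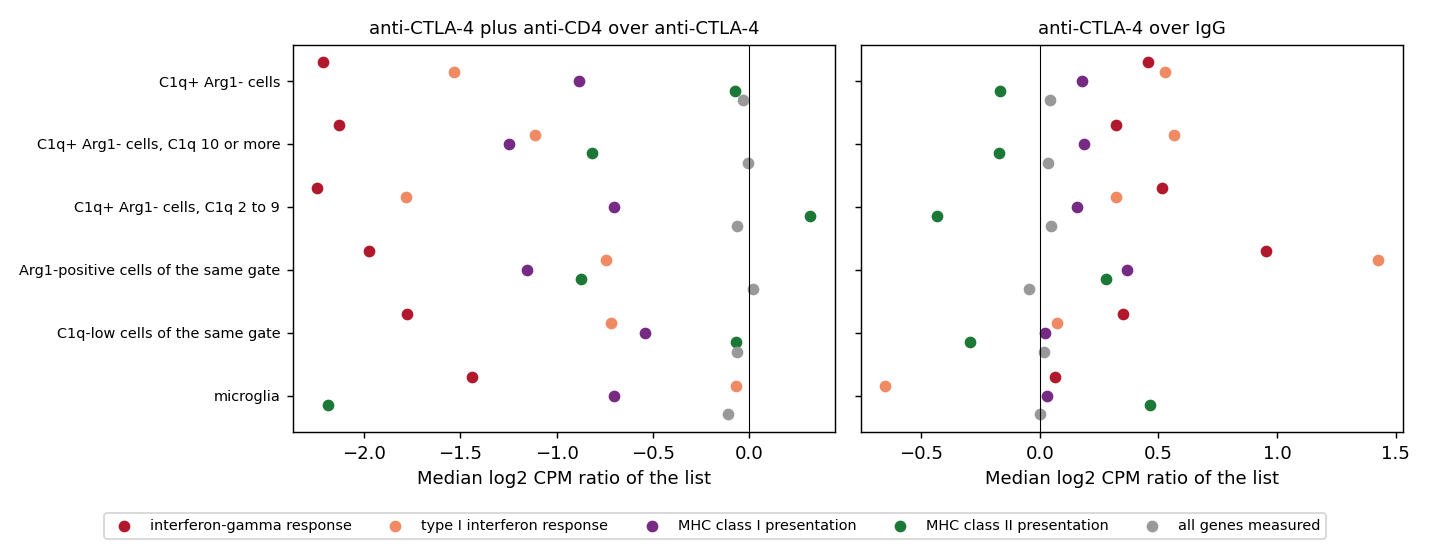
Median log2 CPM ratio (horizontal axis) of 4 gene lists and of all genes measured in C1q+ Arg1- cells, their C1q-rich and C1q-poor cells, and 3 neighboring populations; left, anti-CTLA-4 plus anti-CD4 over anti-CTLA-4, right, anti-CTLA-4 over IgG. The interferon-gamma points on the left run from -2.24 to -1.44, while on the right they run from 0.06 to 0.96.

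Anti-CTLA-4 over IgG, the comparison that shows CTLA-4 blockade with CD4 cells in place, gave smaller differences in C1q+ Arg1- cells. Of 2844 genes tested, 47 were higher (1.65%) and 17 lower (0.598%) with anti-CTLA-4. Cxcl10 was 2.49-fold higher (2.24 to 2.78), at 2287 CPM with anti-CTLA-4 against 917 with IgG, and Socs1 was 2.12-fold higher. H2-Aa stood at 3777 CPM with anti-CTLA-4 against 6589 with IgG, 1.74-fold lower (1.65 to 1.84), short of the 2-fold rule.

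Of the interferon-gamma list 7 of 17 genes were at least 1.5-fold higher and 0 lower, median 0.46, and of the type I list 5 of 16 were higher and 0 lower, median 0.53, or -0.09 in cells thinned to 1000 UMIs. Over 5216 genes measured 12.5% were higher, 10.0% lower and the median was 0.04. No MHC class I gene of 14 passed 1.5-fold in either direction, median 0.18. Of 10 class II genes 4 were lower, median -0.17, or 0.0071 without cells of other markers: H2-Aa, H2-Eb1 (1.70-fold), H2-Ab1 (1.61-fold) and Cd74, the invariant chain (9223 CPM with anti-CTLA-4 against 13858 with IgG). Clec10a, a lectin of dendritic cells and some macrophages, stood at 24.2 CPM with anti-CTLA-4 against 137 with IgG, 5.66-fold lower (3.16 to 10.9). Cd209a stood at 111 against 256 CPM, 2.32-fold lower, with 56.3% of its anti-CTLA-4 UMIs in 1 cell. Conventional dendritic cell markers, of which Cd209a is one, summed to 123 CPM with anti-CTLA-4 and 272 with IgG; their part in these values was not tested.

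Besides Gzma (162 against 5.86 CPM, a ratio of 27.7 that rests on 3 IgG UMIs, 9.19 to 137), the genes highest with anti-CTLA-4 included Cnn3 (7.83-fold), Pglyrp1, a peptidoglycan-binding protein (6.30-fold), and Cd69, an early activation marker (3.70-fold). Without cells of other markers the log2 ratio was 4.10 for Pglyrp1 and 0.89 for Cd69, under 2-fold. Nr4a1 and Klf4, transcription factors of monocyte differentiation, were 3.67-fold and 3.26-fold higher. Nr4a1 is also on the list for the response to tissue dissociation, of which 2 of 9 genes were higher and 1 lower, with a median of 0.46; its part in these values was not tested. Ace, another gene of patrolling monocytes, stood at 111 CPM with anti-CTLA-4 against 35.2 with IgG, 3.14-fold higher (1.84 to 5.63). Fabp5, a fatty acid carrier, was 2.85-fold higher (1.98 to 4.17). On the lower side were also Cd72 (4.22-fold), the DNA demethylase Tet3 (3.57-fold), Myof (3.07-fold) and the chemokine Ccl12 (2.58-fold, 81.2 against 209 CPM). Medians of the other lists lay between -0.40 for homeostatic microglia genes and 0.54 for 7 inflammatory genes, of which 3 were higher and 1 lower. Over all genes measured 12.5% were higher and 10.0% lower by 1.5-fold. These calls moved with the choice of cells: those with at least 10 C1q UMIs gave 33 higher and 12 lower, of which 3 and 1 were among the genes named by the full set. The direction turned for Klf4 in those cells (log2 ratio -0.13), for Ccl12 without cells of other markers (0.33) and for Pglyrp1 in cells thinned to 1000 UMIs (-0.052).

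Healthy brain held too few cells (12) for a comparison. They carried no Cxcl9 or Cxcl10 UMI, and H2-Ab1, a class II chain, was read in 25% of them. S100a8 was read in 75% and Mki67, a gene of dividing cells, in 25%. T cells of that library had a UMI of H2-Ab1 in 2.61%, of S100a8 in 37.3% and of Mki67 in 3.27%, and in cells thinned to 3000 UMIs S100a8 was read in 36.4% of the C1q+ Arg1- cells and 20.4% of the T cells. IgG cells had 1603 CPM of Cxcl9 beside these zeros, and tumor and sex cannot be told apart between the libraries.

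C1q+ Arg1- cells were next set against Arg1-positive cells of the same gate. The gate held 142 Arg1-positive cells with depletion, 69 with anti-CTLA-4, 50 with IgG and 0 in healthy brain, that is 48.6%, 54.3%, 47.6% and 0% of gate cells with C1q. Of 2741 genes tested in every tumor library, 0 were higher in C1q+ Arg1- cells (0%) and 6 lower (0.219%); 1 of the 6 was Arg1. In single libraries 20 of 5086 genes were higher and 43 lower with depletion, 93 and 84 of 3627 with anti-CTLA-4, and 67 and 70 of 2784 with IgG. Ccl24, a chemokine for eosinophils (ENSMUSG00000004814, chromosome 5, 135569937 to 135573049), stood at 24.1 CPM in C1q+ Arg1- and 147 in Arg1-positive cells with depletion, 0 and 218 with anti-CTLA-4, and 1.95 and 515 with IgG. Spp1 stood at 199.96 and 754 CPM, 10.4 and 127, and 7.82 and 342. Vegfa, the growth factor of vessels, stood at 39.8 and 86.7 CPM, 36.3 and 115, and 41.0 and 102. The extracellular matrix gene Ecm1 and the endocytic adaptor Dab2 were the other two.

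The list of low oxygen and glycolysis had medians of -0.38, -0.81 and -0.67 in C1q+ Arg1- over Arg1-positive cells with depletion, anti-CTLA-4 and IgG. By 1.5-fold 3 of 15, 10 of 15 and 9 of 13 of its genes were lower, against 8.71%, 13.7% and 15.7% of all genes measured, and none was higher. The interferon-gamma list had medians of 0.20, 0.26 and 0.69, with 2 of 17, 4 of 20 and 10 of 17 genes higher by 1.5-fold and 0, 4 and 0 lower. Over all genes 6.64%, 13.2% and 12.4% were higher by that much, so the counts with depletion and anti-CTLA-4 lie near the background. Mrc1 was lower with depletion (16.5 against 48.2 CPM) and with IgG (33.2 against 200) but not with anti-CTLA-4 (38.0 against 22.5). A cell without an Arg1 UMI may still express the gene: the Arg1-positive share with anti-CTLA-4 was 63.5% among gate cells of at least 10000 UMIs, 44.4% from 5000 to under 10000 and 25% below. With depletion it was 53.6%, 49.4% and 33.3%, and with IgG 53.1%, 43.5% and 40%.

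**Figure D5:**
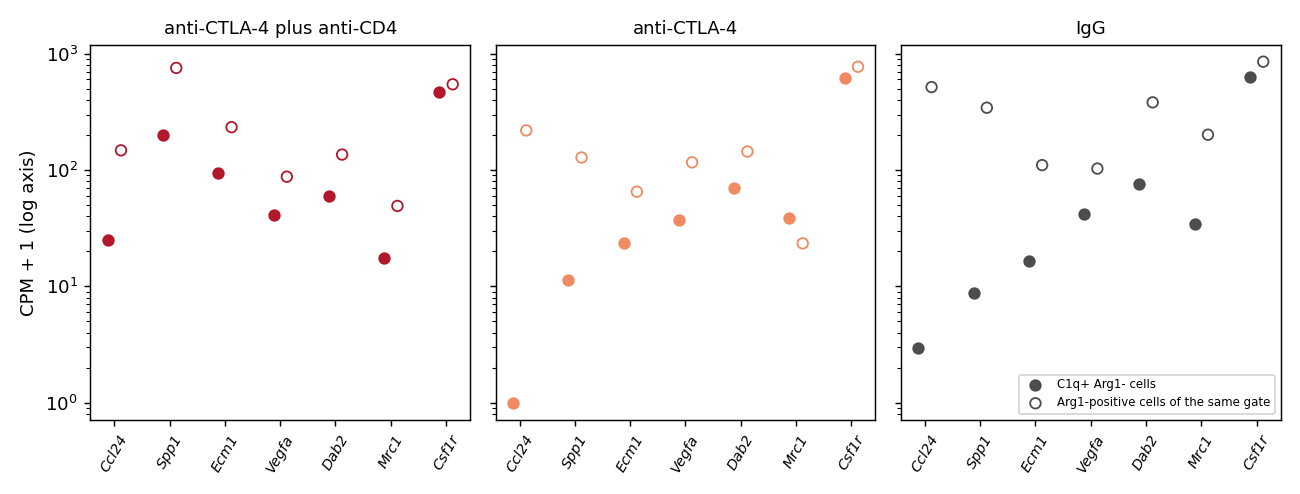
CPM plus 1 (vertical log axis) of 7 genes in C1q+ Arg1- cells (filled) and Arg1-positive cells of the same gate (open), a panel for each tumor library; each mark is a sum over cells of 1 library, with no error drawn. Ccl24 differs most, 1.95 against 515 CPM with IgG, and Csf1r least.

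Against C1q-low cells of the same gate, a comparison added after the data were seen, 8 of 3928 genes were higher (0.204%) and 8 lower (0.204%) in every tumor library. In single libraries 63 of 5855 were higher and 113 lower with depletion, 35 and 77 of 4339 with anti-CTLA-4, and 67 and 122 of 4097 with IgG. Of the 8 higher, C1qa, C1qb, C1qc and Ms4a7 were used by the rule. Apoe stood at 10191 CPM in C1q+ Arg1- and 4136 in C1q-low cells with depletion, 5750 and 2279 with anti-CTLA-4, and 8578 and 3310 with IgG. Trem2 stood at 290 and 92.0 CPM, 128 and 58.5, and 215 and 66.9. Ace, lower in C1q+ Arg1- cells, stood at 22.6 and 99.1 CPM, 111 and 233, and 35.2 and 159. Ceacam1, Adgre4 and Treml4 were lower as well.

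Microglia stood much further away. Of 3584 genes 221 were higher (6.17%) and 456 lower (12.7%) in C1q+ Arg1- cells of every tumor library, or 361 and 335 with median-of-ratios factors. The higher ones were led by the monocyte genes Ly6c2, Chil3, Plac8 and Ccr2, and the lower ones included Siglech, Fcrls, Crybb1 and Slco2b1, genes of resting microglia. The rule chose on microglial genes, so these counts describe how it separates the cells.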

How the data were processed

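Each deposited table holds unnormalized UMI counts for genes by barcodes. Cell Ranger 3.1.0 and the mm10 build were used by the authors, as the submitters' processing notes and the file headers name them; aligner settings and annotation release are not given in the sources used here. The 4 libraries were 10x Genomics droplet libraries over the same 27998 genes. The rule was applied to raw UMIs, and the cells of a library were summed to CPM. Ratios carry exact conditional-binomial 95% intervals and shares exact Clopper-Pearson ones; where a library had 0 counts, 3 counts stood in for it. With 1 library per group there was no test. Comparisons needed 20 cells in both libraries.

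Named genes are those past the size rule (50 UMIs, 10% of cells, 2-fold), per direction the 12 that differed most in log2 of CPM + 5 (10 against other populations, where the rule had to hold in each tumor library), and up to 4 genes per list; ribosomal, mitochondrial, immunoglobulin, sex-linked and unnamed model genes were left out. Of the listed genes and markers 5 were not in the table under their own symbol. One gene of the interferon-gamma list is counted but not reported here. The 21 lists use genes with at least 20 UMIs and count at 1.5-fold. Cells, rule and lists were chosen with earlier results of these data known. H2-Ab1, Mki67, S100a8, Cxcl9 and Cxcl10 in healthy brain were named after their values were seen. Leaving out cells with neutrophil, NK or B cell markers, and the C1q-low comparison, were added after the data were seen. The ratio calculation was tested on simulated data. Microglia had at least 3 UMIs of the 5 microglial genes and at most 1 of the macrophage genes; T cells had at least 2 Cd3 UMIs. Doublets were scored with Scrublet in scanpy 1.11.5 (expected rate 0.05; the top 5% where it marked under 0.5%) but kept. Gene coordinates came from GENCODE vM21 and promoters from a RefSeq table. Python 3.11.15, numpy 2.4.6, scipy 1.17.1 and pandas 2.3.3 were used.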

Additional observations from a re-analysis of the deposited data

How the results depend on the processing

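No paired analysis was possible because each group was 1 library; for the same reason no replicate could be left out. Of the values recomputed for named genes, 400 stayed within their counting interval, 116 moved and 12 changed sign. Of the list medians, 375 stayed near the main value, 62 moved and 2 were counted as a change of sign. Changes of sign were counted only for lists with a main median of at least 1.5-fold. Smaller medians could change sign uncounted, such as the type I median of anti-CTLA-4 over IgG (0.53, lowest -0.09). For depletion over anti-CTLA-4 the interferon-gamma median stayed between -2.22 and -1.76 and the type I median between -1.59 and -0.86 over the 12 settings run.

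Depletion over anti-CTLA-4 gave 190 genes lower in cells with at least 10 C1q UMIs and 214 with the rule applied to cells thinned to 2000 UMIs. Of these, 116 and 134 were among the 376 lower in the full set. The same settings gave 175 and 149 genes higher, 77 and 60 of them among those higher in the full set. With no Arg1 condition 244 were higher and 392 lower, of which 90 and 216 were shared with the full set. Cells thinned to 1000 UMIs gave 20 higher and 38 lower, since fewer genes reach 50 UMIs. A ratio of 1.5 gave 548 and 831, and 20 UMIs with no minimum share 542 and 663. Without cells of neutrophil, NK or B cell markers 108 were higher. Anti-CTLA-4 over IgG gave 99 higher and 35 lower with the thinned rule. Only 5 and 1 of these were among the 47 higher and 17 lower of the full set. With no Arg1 condition 48 were higher and 41 lower, of which 20 and 4 were shared. Without cells of other markers 31 were higher, 20 of them shared, and the mean of per-cell CPM gave 31 lower, 11 of them shared. Cells thinned to 1000 UMIs gave 2 and 0, with 0 shared. A ratio of 1.5 gave 229 and 143, and 20 UMIs 212 and 152.

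Against Arg1-positive cells, thinning to 1000 UMIs gave 2 lower, 1 of them among the 6 of the full set. An Arg1 threshold of 3 UMIs gave 2 higher and 10 lower, of which 0 and 6 were shared. Against microglia thinning gave 42 and 92, and median-of-ratios factors 361 higher. Against C1q-low cells thinning gave 4 and 3, of which 4 and 0 were shared. The number of cells with depletion, with anti-CTLA-4, with IgG and in healthy brain was 45, 15, 20 and 0 without any cell carrying a B cell, NK cell or neutrophil marker UMI. It was 98, 23, 24 and 1 with at least 10 C1q UMIs, and 100, 29, 35 and 2 with the thinned rule, under which 1 of the 2 healthy brain cells (50%) was a border cell. Without cells over the marker limits 104 remained with depletion and 2 in healthy brain.

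Among named genes and lists with a main median of at least 1.5-fold, signs turned in these cases, whose cause was not tested. For depletion over anti-CTLA-4 the border list gave 0.12 with the thinned rule and 0.050 with no Arg1 condition, and the thinned rule gave 1.08 for Gzma and 0.34 for Prkx (log2 ratios). For anti-CTLA-4 over IgG, cells with at least 10 C1q UMIs gave -1.72 for Dmkn, -1.13 for Gadd45b, -0.13 for Klf4 and 0.28 for Tmem261. The thinned rule gave 0.56 for Tmem261, 0.75 for Cd37 and 0.070 for Fdps. Ccl12 was at 0.33 without cells of other markers, and thinning to 1000 UMIs gave -0.052 for Pglyrp1 and 0.36 for Fdps. Leaving out any cell with a marker UMI of another type was not run between libraries, since 15 anti-CTLA-4 cells were left, and nothing was run for IgG over healthy brain with 12 cells.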
